A study of Homo sapiens with 6 samples.

Results

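TAM receptors are the receptor tyrosine kinases TYRO3, AXL and MERTK, and their main ligands are GAS6 and protein S, the product of PROS1. These 5 genes were taken by symbol from the 23228 gene symbols of the count tables, all 5 were found, and all 5 were among the 12796 genes with enough counts to be tested. They were followed in MDA-MB-231, a mesenchymal-like cell line of human TNBC, after knockdown of PELP1, a nuclear coregulator of transcription that also takes part in ribosome assembly. The control group was 3 replicates of cells with a non-targeted control shRNA, and the PELP1-KD group was 3 replicates of cells with a PELP1 shRNA. Both shRNAs were delivered by lentivirus and kept under puromycin selection, the knockdown rests on a single PELP1 shRNA, and all 6 samples grew in RPMI with serum. The labels name no clones and do not say that replicates were selected or grown separately, so p-values measure the spread between these samples, which may be technical.

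GAS6 and protein S are secreted proteins that bind a TAM receptor with one end and phosphatidylserine on a cell surface with the other. The end that binds phosphatidylserine works only after vitamin K-dependent carboxylation of its glutamates. AXL is activated by GAS6 and hardly by protein S, whereas TYRO3 and MERTK respond to both. In macrophages and other phagocytes the receptors serve the uptake of dying cells and restrain inflammation. In mesenchymal breast cancer cells AXL is typically abundant and is known for its part in migration and drug tolerance.

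Reads on genes numbered between 17304864 and 23132102 per replicate. CPM are reads scaled to the library size, by TMM unless stated. By library totals alone, 3 counts, taken as the limit of detection, stood for 0.13 to 0.173 CPM. Values with ± are means and SD over n = 3 replicates. PELP1 itself had 57.8 CPM ± 2.14 in control cells and 29.6 CPM ± 0.876 in PELP1-KD cells, with no overlap of the groups. VIM and CD44, markers of this mesenchymal-like line, were abundant in all samples. Of the 9 luminal epithelial markers, ESR1, PGR and CDH1 stayed below 0.1 CPM on average in both groups, whereas KRT8 (284 CPM), KRT18 (281 CPM), KRT19 (97.8 CPM), EPCAM (9.46 CPM) and GATA3 (6.98 CPM) were detected in control cells, and the list summed to 670 to 696 CPM per control and 568 to 575 CPM per PELP1-KD sample. Of the 8 leukocyte markers, PTPRC, TYROBP and AIF1 had no read in any sample, while CD68, CSF1R and CD14 had reads in all 6, and the summed level of the list, nearly all of it CD68, lay between 120 and 124 CPM in control replicates and between 93.9 and 101 CPM in PELP1-KD replicates. Of the 6 endothelial markers, TEK and CLDN5 had no read, VWF had 0 to 6 reads per control and 12 to 20 per PELP1-KD sample, and the list summed to between 2.65 and 3.48 CPM in control replicates and 2.05 and 2.42 CPM in PELP1-KD replicates.

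The stretches of 250 bases before the start sites of the ligand genes and of MERTK are shown because these 3 genes had the largest falls of the family, and that of AXL because it is the dominant receptor. They were read from the RefSeq promoter table (GRCh38.p14), on the strand of each gene and 5′ to 3′. They lie at chr13:113864077-113864326 (minus strand), chr3:93973897-93974146 (minus strand), chr2:111898357-111898606 (plus strand) and chr19:41218973-41219222 (plus strand). Gene positions given below come from GENCODE, whose start sites can differ from these. The PROS1 window lies inside the span given for its gene, and the MERTK and AXL windows run past the start given for theirs. Capitals mark the GC box, GGGCGG on either strand, the element read by SP1 and related factors.
GAS6: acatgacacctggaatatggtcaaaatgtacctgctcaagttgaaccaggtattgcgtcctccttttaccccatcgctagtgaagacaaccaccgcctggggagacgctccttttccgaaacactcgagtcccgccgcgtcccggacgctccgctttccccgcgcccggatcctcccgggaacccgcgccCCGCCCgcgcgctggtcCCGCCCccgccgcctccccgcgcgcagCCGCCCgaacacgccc
PROS1: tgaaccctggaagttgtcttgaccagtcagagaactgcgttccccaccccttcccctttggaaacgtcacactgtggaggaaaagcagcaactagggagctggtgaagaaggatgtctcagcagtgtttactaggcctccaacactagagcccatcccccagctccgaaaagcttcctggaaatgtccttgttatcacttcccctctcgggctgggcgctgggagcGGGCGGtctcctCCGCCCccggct
MERTK: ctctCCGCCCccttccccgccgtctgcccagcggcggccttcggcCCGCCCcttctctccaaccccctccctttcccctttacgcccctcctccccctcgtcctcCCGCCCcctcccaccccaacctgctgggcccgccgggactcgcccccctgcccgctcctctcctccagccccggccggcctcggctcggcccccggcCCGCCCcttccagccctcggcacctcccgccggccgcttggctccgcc
AXL: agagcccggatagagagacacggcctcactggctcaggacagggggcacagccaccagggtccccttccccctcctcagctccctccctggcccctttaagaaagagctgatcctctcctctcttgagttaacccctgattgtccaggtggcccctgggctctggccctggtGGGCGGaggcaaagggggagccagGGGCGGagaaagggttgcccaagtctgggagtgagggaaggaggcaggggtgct

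The GC box was found 3 times before GAS6, 2 times before PROS1, 4 times before MERTK, 2 times before AXL and 3 times before TYRO3, where 42.6% of the 35116 windows in the table hold at least 1. In GAS6 the matches began 60, 43 and 16 bases before the start site, and in PROS1 they began 24 and 12 bases before it. None of these 5 windows held the E-box CACGTG, the CCAAT box CCAAT, the TATA box TATAAA or the M-CAT element GGAATG on either strand, which are present in 6.34%, 32.0%, 10.7% and 11.9% of all windows. The AP-1 element TGANTCA, present in 6.57% of windows, was found only before TYRO3. The G+C content was 80.0% before TYRO3, 78.8% before MERTK, 66.8% before GAS6, 64.4% before AXL and 57.6% before PROS1, where the median window has 58.0%. AXL and TYRO3 have a further window in the table at a downstream start site, and neither of those holds a GC box, while that of AXL holds 1 M-CAT element. Such matches describe letters and do not show binding.

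Per length, AXL stood far above the other members. Its level in control cells was 279 RPKM ± 4.38, CPM per kilobase of exon, which ranked 61 among the 12317 tested genes with a length. GAS6 followed with 34.3 RPKM ± 1.58. TYRO3 had 4.28 RPKM ± 0.0587, PROS1 3.12 RPKM ± 0.0656 and MERTK 1.78 RPKM ± 0.138. The order AXL, GAS6, TYRO3, PROS1, MERTK was found in both groups, and in neither group did the replicates of neighbours in this order overlap. AXL thus made up 97.9% of the summed RPKM of the 3 receptors in control cells and 97.9% in PELP1-KD cells. The level of GAS6 depends on the length taken for it, since its exons in GENCODE cover 6006 bases and its longest coding transcript 2490, which gives 82.8 RPKM in control cells in place of 34.3. The order of the 5 genes was the same with either length.

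**Figure D1:**
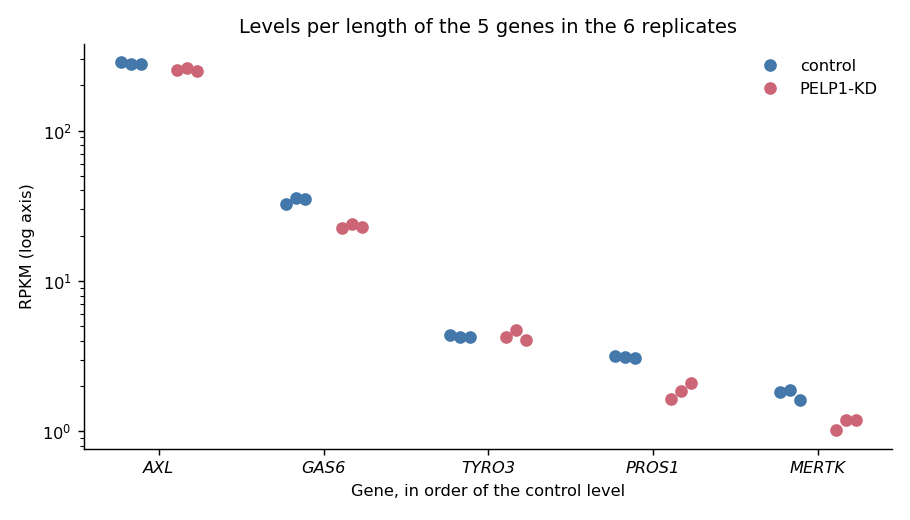
RPKM on a log axis of the 5 genes in the 3 control (blue) and 3 PELP1-KD (red) replicates, 1 point per replicate. AXL lies near 279 RPKM in control cells and MERTK near 1.78 RPKM, and the points of neighbouring genes do not overlap within a group.

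Both ligands and 2 of the 3 receptors were lower in PELP1-KD cells. PROS1 and GAS6 fell to 59.6% and 67.4% of their control level and MERTK to 63.6%, AXL kept 91.2%, and TYRO3 was not called. With 0.05 as the limit of the BH-adjusted p of the quasi-likelihood test in edgeR, 4 of the 5 members were lower and 0 higher, where 24.2% of all tested genes were lower and 22.7% higher. Library scaling affects this background. With library totals alone in place of TMM, 2418 genes were lower and 3817 higher, against 3103 and 2904 with TMM, and the 4 members were still called lower. That scaling moves the median log2FC of all tested genes from 0.0014 to 0.05, so counts given with it below are to be read against 2418 lower and 3817 higher. No member reached a log2FC of 1 in size, which 1.34% of tested genes passed downward and 1.9% upward. The replicates of the 2 groups did not overlap in 4 of the 5 members, and 55% of all tested genes have groups that do not overlap. In bulk RNA, fewer cells that express a gene and less RNA of it per cell cannot be told apart.

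**Figure D2:**
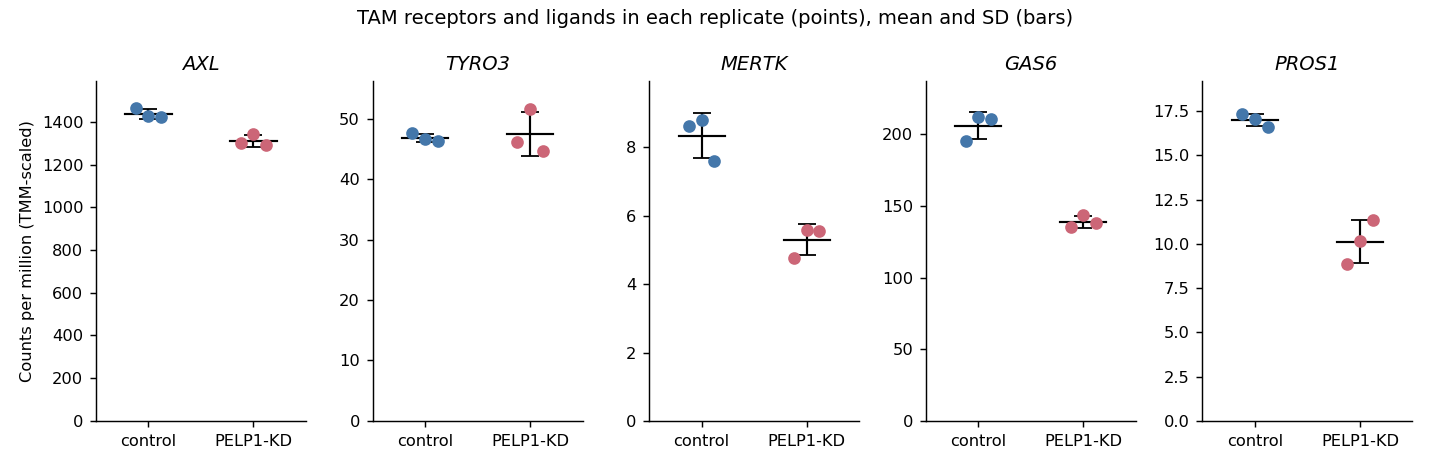
TMM-scaled CPM of AXL, TYRO3, MERTK, GAS6 and PROS1, each on its own axis from 0, in the control (blue) and PELP1-KD (red) replicates. Points are replicates and bars the mean and SD, and the groups are apart in all genes but TYRO3.

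GAS6, the ligand shared by all 3 receptors, lies on chromosome 13 of GRCh38 from 113820549 to 113864067 on the minus strand. Its reads numbered 3302, 4825 and 3746 in control replicates 1 to 3, against 2634, 3062 and 3248 in PELP1-KD replicates 1 to 3. Scaled, these were 195, 212 and 211 CPM in control cells and 135, 144 and 138 CPM in PELP1-KD cells. The groups lay clearly apart, PELP1-KD below control, and control replicate 1 was the lowest of its group. The mean went from 206 CPM ± 9.49 to 139 CPM ± 4.27, a log2FC of -0.57 (SE 0.0397, BH-adjusted p = 3.14e-10 by edgeR). Of all tested genes, 4.36% had a log2FC as low or lower. Antisense genes overlap GAS6, and since the strand setting of the counting is not given, reads from them cannot be told apart from those of GAS6.

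PROS1 encodes protein S, an anticoagulant of plasma that also serves as a ligand of TYRO3 and MERTK. It lies on chromosome 3 from 93873033 to 93980003 on the minus strand. It was counted with 293, 387 and 295 reads in control replicates 1, 2 and 3 and with 173, 217 and 267 reads in PELP1-KD replicates 1, 2 and 3. The control replicates were close together at 17.3, 17.03 and 16.6 CPM. The PELP1-KD replicates spread more, at 8.88, 10.2 and 11.3 CPM, and all 3 lay below the controls. The log2FC of PROS1 was -0.74 (SE 0.0916, BH-adjusted p = 1.37e-06 by edgeR), the lowest point estimate among the 5 members. Without PELP1-KD replicate 1 it was -0.65, and without PELP1-KD replicate 3 it was -0.83. PROS1 has a closely similar pseudogene, not analysed here. Reads with more than 1 alignment went to no gene, so the level of PROS1 is uncertain.

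MERTK, the receptor typical of macrophages, lies on chromosome 2 from 111898479 to 112029561 on the plus strand and was the least abundant member. It had 146, 200 and 135 reads in control replicates 1, 2 and 3 and 93, 119 and 131 reads in PELP1-KD replicates 1, 2 and 3. These correspond to 8.63, 8.80 and 7.60 CPM in control cells and 4.77, 5.58 and 5.57 CPM in PELP1-KD cells. The groups did not overlap, and control replicate 3 was the nearest to the PELP1-KD cells. Its log2FC was -0.65 (SE 0.115, BH-adjusted p = 9.67e-05 by edgeR). With 93 to 200 reads per sample its interval was wide, from -0.89 to -0.41 on the log2 scale at 95% confidence. Of the leukocyte markers, CD68 was also lower, at 118 CPM in control cells and 93.8 CPM in PELP1-KD cells, whereas CSF1R (3.39 and 3.36 CPM) and CD14 (0.489 and 0.602 CPM) were not called and PTPRC, TYROBP and AIF1 had no read in any sample. The part of leukocyte RNA in the level of MERTK was not tested.

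AXL lies on chromosome 19 from 41219203 to 41261766 on the plus strand. Its reads numbered 24758, 32408 and 25279 in control replicates 1 to 3, against 25347, 28647 and 30348 in PELP1-KD replicates 1 to 3. The scaled values were 1464, 1426 and 1424 CPM in control cells and 1300.4, 1343 and 1289 CPM in PELP1-KD cells. The groups did not overlap, but the gap between them was small beside the level. The log2FC was -0.13 (SE 0.0251, BH-adjusted p = 1.87e-04 by edgeR), and its 95% interval corresponds to a change of -12.1% to -5.47%. The size of this fall depends on the scaling, and with library totals alone the log2FC of AXL was -0.08 (BH-adjusted p = 0.00752 by edgeR). Of all tested genes, 28.5% had a log2FC as low as that of AXL or lower.

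TYRO3 lies on chromosome 15 from 41557675 to 41583586 on the plus strand. It was counted with 804, 1060 and 822 reads in control replicates 1, 2 and 3 and with 899, 1102 and 1051 reads in PELP1-KD replicates 1, 2 and 3. The level was 46.8 CPM ± 0.642 in control cells and 47.5 CPM ± 3.69 in PELP1-KD cells. PELP1-KD replicate 2 had 51.7 CPM and was above all control replicates, while the other two, at 46.1 and 44.7 CPM, were below all of them. The log2FC was 0.02 (SE 0.0581, BH-adjusted p = 0.804 by edgeR). Its 95% interval corresponds to a change of -6.79% to 10.2%. The pseudogene TYRO3P had between 3 and 8 reads per sample and was not tested.

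**Figure D3:**
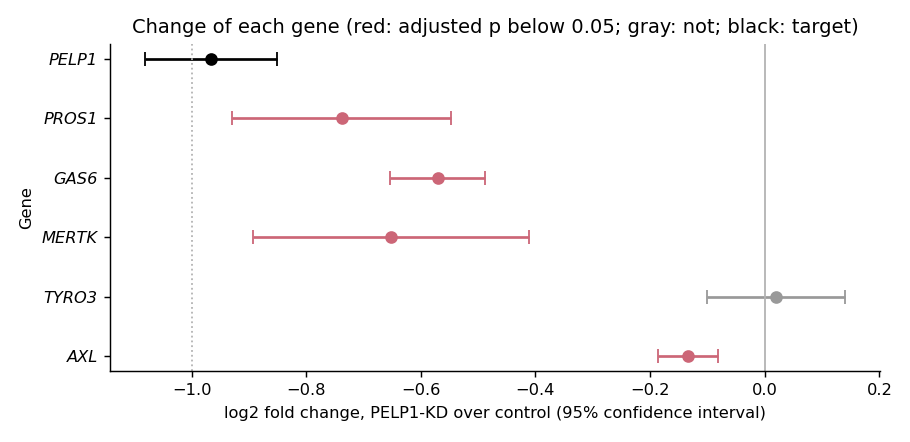
Log2 fold change of PELP1 and the 5 members, PELP1-KD over control, with 95% confidence intervals from edgeR's quasi-likelihood fit, with a solid line at 0 and a dotted line at -1. PROS1, MERTK and GAS6 lie between -0.74 and -0.57, AXL at -0.13, and the interval of TYRO3 spans 0.

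Ratios of reads within a replicate do not depend on the scaling of libraries. For every 100 reads on AXL, control replicates 1, 2 and 3 had 13.3, 14.9 and 14.8 reads on GAS6, and PELP1-KD replicates had 10.4, 10.7 and 10.7. The mean ratio of GAS6 to AXL reads differed by -26.2% in PELP1-KD cells, and the groups did not overlap. Reads on PROS1 per 100 AXL reads were 1.18, 1.19 and 1.17 in the 3 controls and 0.683, 0.757 and 0.88 after knockdown. Reads on MERTK per 100 AXL reads were 0.59, 0.617 and 0.534 in the 3 controls and 0.367, 0.415 and 0.432 after knockdown. Both ratios were thus lower in every PELP1-KD replicate. For TYRO3, the ratio to AXL ranged from 3.25 to 3.27 in the controls and from 3.46 to 3.85 after knockdown, so it was higher in all of them. Each of these 4 ratios had p = 0.1 in a two-sided exact permutation test, which is the lowest that groups of 3 can give, and 0.125 after Benjamini-Hochberg adjustment over 10 ratios and shares.

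**Figure D4:**
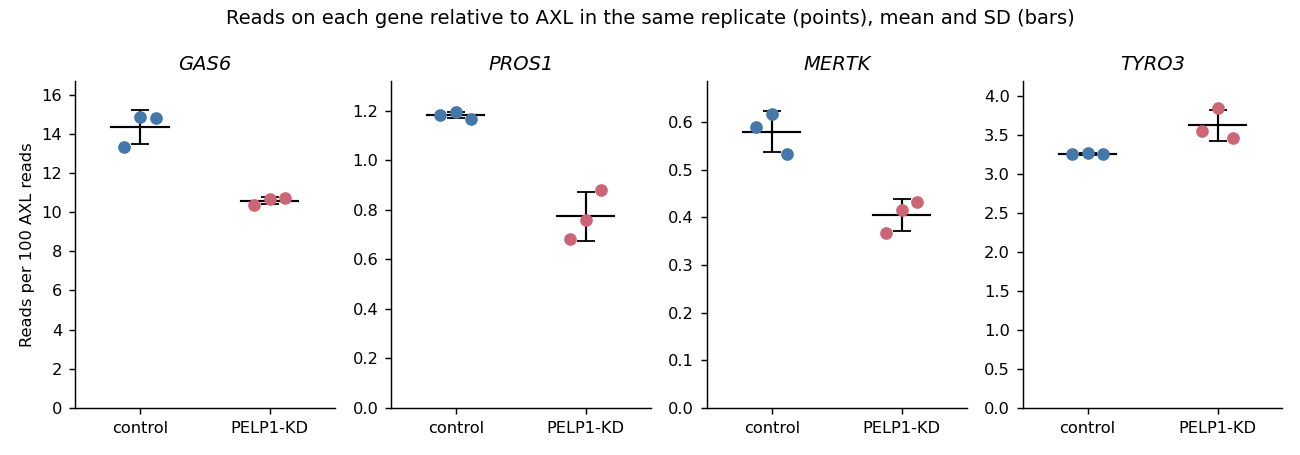
Reads on GAS6, PROS1, MERTK and TYRO3 per 100 reads on AXL in the same replicate, control (blue) and PELP1-KD (red), on axes from 0. Points are replicates and bars the mean and SD, and the PELP1-KD replicates are below all controls for GAS6, PROS1 and MERTK and above them for TYRO3.

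Summed over the family, the ratio of ligands to receptors was lower in all PELP1-KD replicates than in any control. GAS6 and PROS1 together had 13.1% ± 0.735 of the summed RPKM of the 3 receptors in control cells and 9.62% ± 0.225 in PELP1-KD cells. These percentages depend on the length taken, and with the longest coding transcripts they were 28.1% ± 1.62 in control cells and 20.6% ± 0.427 after knockdown, again without overlap. On the log2 scale this ratio was -2.93 in control cells and -3.38 in PELP1-KD cells, a difference of -0.45 (two-sided exact permutation test, p = 0.1, 0.125 after adjustment). The share of AXL among the receptors was 97.9% ± 0.0482 in control cells and 97.9% ± 0.1 in PELP1-KD cells, and the groups overlapped (p = 0.8 in the same exact test). Within the remainder, MERTK went from 0.623% to 0.434% of the receptors and TYRO3 from 1.501% to 1.67%, each without overlap of the groups. GAS6 made up 91.7% of the ligand RPKM in control cells and 92.6% in PELP1-KD cells, with overlapping groups.

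The genes closest to each member over the 6 samples were taken by Pearson's r of log2 CPM, as a description. For GAS6 these were ATP5B (r = 0.9997), PIP4K2B (0.9991) and SLC38A4 (0.9986), and for PROS1 LAMA4 (0.9963), NET1 (0.9943) and PIK3R1 (0.9937). For AXL they were HDAC7, MYEOV and GANAB (0.9973 to 0.9969), and for MERTK IKBKB, ERP29 and CNDP2 (0.9972 to 0.9964). TYRO3 was closest to IL17RE (0.9753), PQLC2 (0.9742) and RRP9 (0.9573). Between 561 and 843 genes had an r above 0.95 with each of the 4 members that fell, and 4 genes had one with TYRO3. The 6 points share their split into 2 groups, so these values carry no test.

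Of the 8 genes for carboxylation and processing, 3 (37.5%) were lower, 1 (12.5%) was higher and 4 were not called. Over all tested genes, 24.2% were lower and 22.7% higher. The median log2FC was -0.08 for the list and 0.0014 for all tested genes. With library totals alone 2 of the 8 were lower and 2 higher. GGCX, the carboxylase itself, went from 63.2 CPM ± 0.886 to 57.1 CPM ± 0.353, a log2FC of -0.15 (BH-adjusted p = 0.014 by edgeR). This call was lost with library totals alone (log2FC -0.10, BH-adjusted p = 0.0898 by edgeR). CALU, an inhibitor of the carboxylase, fell by 0.24 on the log2 scale and NQO1, a quinone reductase, by 0.25. FURIN, a protease that removes propeptides, rose from 154 CPM ± 0.552 to 216 CPM ± 8.44, a log2FC of 0.49 (BH-adjusted p = 8.81e-10 by edgeR). The vitamin K epoxide reductases VKORC1 and VKORC1L1 had a log2FC of 0.12 and -0.06 and AIFM2 -0.11, none of them called. With library totals alone VKORC1 was called higher, at a log2FC of 0.17 (BH-adjusted p = 0.0106 by edgeR).

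Of the other proteins described as TAM ligands, LGALS3 (galectin-3) fell by 0.20 on the log2 scale, from 64.4 CPM ± 1.04 to 56.1 CPM ± 0.631 (BH-adjusted p = 0.00158 by edgeR). TUB had 3.95 CPM in control cells and 4.73 CPM in PELP1-KD cells and was not called. TULP1 was not tested and was at 0 reads in all control replicates.

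Shedding releases the outer part of AXL and MERTK from the cell, a step carried out by ADAM17 and, for AXL, also by ADAM10. Of the 12 genes of shedding, 4 (33.3%) were lower, 2 (16.7%) were higher and 6 were not called. Among all tested genes the shares were 24.2% lower and 22.7% higher. With library totals alone 2 of the 12 were lower and 3 higher. ADAM17 fell from 79.7 CPM ± 0.831 to 54.1 CPM ± 2.59, a log2FC of -0.56 (SE 0.0483, BH-adjusted p = 7.8e-09 by edgeR). TIMP3, a matrix-bound inhibitor of ADAM17, fell further, from 44.4 CPM ± 1.37 to 15.3 CPM ± 0.254, a log2FC of -1.53 (SE 0.0627, BH-adjusted p = 7.78e-14 by edgeR). ADAM10 had 214 CPM in control cells and 202 CPM in PELP1-KD cells and was not called. Among gamma-secretase genes, which cleave the membrane stub, APH1B rose by a log2FC of 0.43 (BH-adjusted p = 2.79e-04 by edgeR). RHBDF2, needed for ADAM17 maturation, rose by a log2FC of 0.15, a call lost under 6 alternatives.

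Of the 21 tested genes of receptor signaling, 8 (38.1%) were lower, 3 (14.3%) were higher and 10 were not called. The shares over all tested genes were 24.2% and 22.7%. This list had a median log2FC of 0.04. With library totals alone 5 were lower and 9 higher and the median was 0.09, a move about as large as that of all tested genes. PIK3R1, a regulatory subunit of PI3K, fell from 19.4 CPM ± 0.885 to 12.7 CPM ± 1.14, a log2FC of -0.60 (SE 0.0832, BH-adjusted p = 5.75e-06 by edgeR). AKT2, a kinase downstream of PI3K, fell by 0.22 on the log2 scale. Its paralog AKT1 rose from 250 CPM in control cells to 285 CPM in PELP1-KD cells, a log2FC of 0.19 (BH-adjusted p = 1.11e-04 by edgeR). SRC and PLCG1, the other genes of this list called higher, had a log2FC of 0.16 and 0.14. SOCS1, a feedback inhibitor, and PIK3CA, a catalytic subunit of PI3K, were lower at adjusted p-values of 0.0461 and 0.0268 by edgeR with overlapping groups. Their calls were lost under 8 and 6 of the 13 alternatives. VAV3 had no read in any sample.

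Among 9 tested receptors described as partners of the TAM receptors, 4 (44.4%) were lower and 3 (33.3%) higher. Over all tested genes 24.2% were lower and 22.7% higher. With library totals alone 3 of the 9 were lower and 3 higher. PDGFRB, a receptor of platelet-derived growth factor, rose from 15.7 CPM ± 1.5 to 45.6 CPM ± 1.27, a log2FC of 1.53 (SE 0.069, BH-adjusted p = 3.73e-13 by edgeR). MET, the receptor of hepatocyte growth factor, fell from 229 CPM ± 11.1 to 169 CPM ± 3.83, a log2FC of -0.43 (BH-adjusted p = 1.12e-08 by edgeR). KDR, a low gene with 22 to 69 reads per sample, had a log2FC of -1.03 (BH-adjusted p = 5.53e-04 by edgeR), and IL15RA, the interleukin-15 receptor alpha chain, rose by a log2FC of 0.41.

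Phosphatidylserine reaches the cell surface through scramblases and is returned by flippases. Of the 8 tested genes of this list, 2 (25%) were lower, 0 were higher and 6 were not called, or 1 lower with library totals alone. The share called lower was near the 24.2% of all tested genes, of which 22.7% were higher. TMEM30A, the subunit that flippases need, fell from 524 CPM ± 35.6 to 423 CPM ± 12.7, a log2FC of -0.31 (BH-adjusted p = 1.36e-06 by edgeR).

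Of 13 tested genes of other routes for the uptake of dying cells, 7 (53.8%) were higher, 3 (23.1%) lower and 3 not called. Over all tested genes, 22.7% were higher and 24.2% lower, so the share called lower was near that background. The median log2FC of the list was 0.18. With library totals alone its counts were 7 and 3 as well, against 3817 higher and 2418 lower over all 12796 tested genes. ITGB3, the integrin chain that with ITGAV binds the phosphatidylserine bridges MFGE8 and EDIL3, rose from 3.98 CPM ± 0.456 to 15.3 CPM ± 0.633, a log2FC of 1.94 (SE 0.107, BH-adjusted p = 8.61e-12 by edgeR). EDIL3 rose by a log2FC of 0.51. LRP1, an uptake receptor, rose from 13.3 CPM ± 0.742 to 23.1 CPM ± 0.717, a log2FC of 0.79. RAC1, the GTPase that drives engulfment, fell from 440 CPM ± 11.8 to 289 CPM ± 0.852, a log2FC of -0.61 (SE 0.0304, BH-adjusted p = 1.78e-12 by edgeR). TIMD4, HAVCR1, STAB2 and ELMO1 had no read in any sample.

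Over the union of these 7 lists, 73 genes were tested, of which 25 (34.2%) were lower and 16 (21.9%) higher, where 24.2% and 22.7% of all tested genes were. The median log2FC of the union was -0.02, against 0.0014 over all tested genes. With library totals alone, 17 were lower and 24 higher, and the medians were 0.03 for the union and 0.05 for all tested genes.

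All 9 genes listed as factors of the AXL promoter were lower in PELP1-KD cells, where 24.2% of all tested genes were. Their log2FC lay between -0.59 and -0.18 with a median of -0.28, and all 9 were also lower with library totals alone. The list was chosen with earlier results of these data known, so this count carries no test. TEAD1, the DNA-binding partner of YAP1, fell from 366 CPM ± 11.5 to 244 CPM ± 1.64, a log2FC of -0.59 (SE 0.032, BH-adjusted p = 7.14e-12 by edgeR). FOSL1, an AP-1 subunit, went from 292 CPM ± 15.4 to 203 CPM ± 3.58, a log2FC of -0.53 (BH-adjusted p = 4.03e-10 by edgeR). WWTR1, which encodes the YAP1 paralog TAZ, fell by 0.37 on the log2 scale and the zinc finger gene MZF1 by 0.35. The log2FC of AXL itself was -0.13. The part of these factors in the level of AXL was not tested.

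Of the 8 markers of the mesenchymal state of this line, 6 were lower, 1 was higher and 1 was not called, with a median log2FC of -0.27. Of all tested genes, 24.2% were lower and 22.7% higher. CD44, a hyaluronan receptor, fell by 0.55 on the log2 scale, ZEB1, a transcription factor of EMT, by 0.38 and ANXA1 by 0.36, while FN1 (fibronectin) rose by a log2FC of 0.38. Of the 6 tested luminal epithelial markers, 4 were lower and 0 higher, to be read against the same shares, or 4 lower and 1 higher with library totals alone. KRT19, a keratin, had a log2FC of -0.95 (BH-adjusted p = 1.53e-10 by edgeR), KRT18 fell by 0.21 on the log2 scale and KRT8 by 0.13. FOXA1, at 0.974 CPM in control cells and 0.191 CPM in PELP1-KD cells, had a log2FC of -2.37. Of the 3 tested leukocyte markers, CD68 fell by 0.33 on the log2 scale. The part of these shifts in the changes of the 5 members was not tested.

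**Figure D5:**
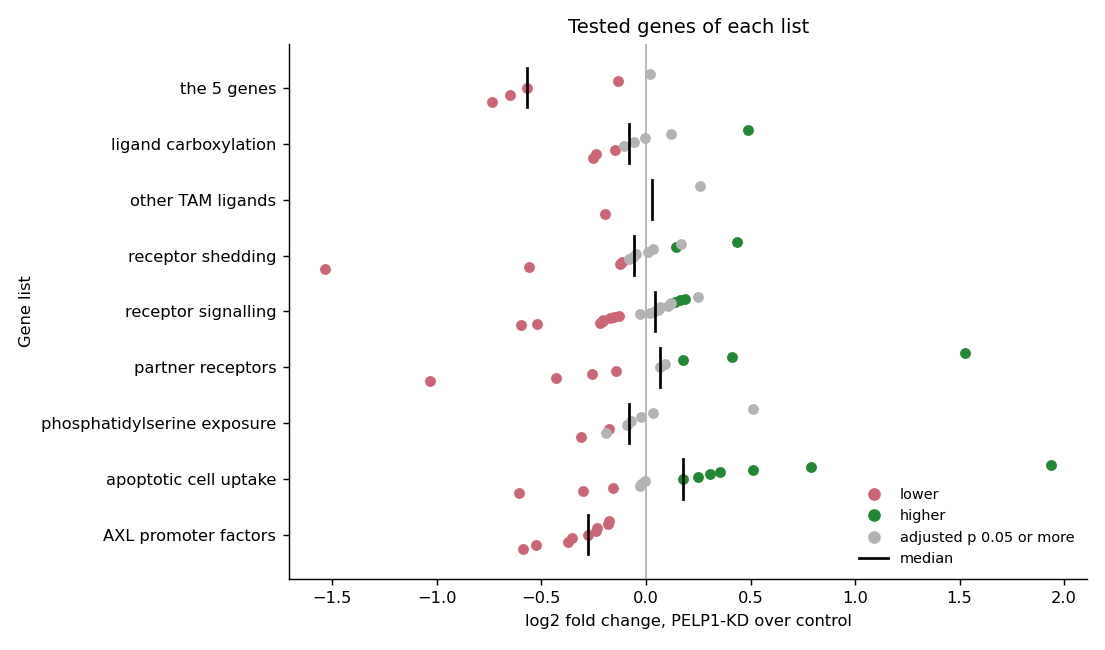
Log2 fold change, PELP1-KD over control, of each tested gene in the 5 members and 8 related gene lists, red where lower, green where higher and gray where the adjusted p-value was 0.05 or more. Black bars are medians, at -0.57 for the 5 members, -0.28 for the AXL promoter factors and 0.18 for the genes of apoptotic cell uptake.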

How the data were processed

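RNA-seq libraries of 3 control and 3 PELP1-KD replicates were compared. The authors deposited raw read counts per gene symbol, 1 table per replicate, without normalization. Their processing notes name bcl2fastq, TopHat2, SAMtools and HTSeq with the build hg19; the library kit was stranded, but versions, annotation and the strand setting of the counting are not given in the sources used here. Rows that name no gene were left out, namely reads with more than 1 alignment (32.5% to 32.9% of reads), without a feature (7.64% to 8.19%) and ambiguous (0.657% to 0.688%). Groups and replicate numbers came from the sample titles.

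Genes passing filterByExpr (minimum 10 counts) were scaled by TMM and tested by edgeR 4.0.16 (R 4.3.3), quasi-likelihood, with Benjamini-Hochberg adjustment over 12796 genes. The biological coefficient of variation was 3.52%. The standard error is the log2FC over the square root of F; log2 CPM used a prior count of 2. Counts without molecular identifiers make detection limits cover counting error only. Lengths and positions came from GENCODE 29 (GRCh38, not the authors' build), with 92.7% of symbols matched by symbol or synonym; no coordinate was converted. Ratios used exact permutation tests (SciPy 1.17.1). The code was checked on simulated counts in which few genes changed, in both directions, so this check did not test the scaling of libraries. Alternatives were RLE factors, library totals, DESeq2 1.42.0, limma 3.58.1 voom, other filters, the replicate block and leaving out replicates; the length of the longest transcript was added after seeing the data.

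The members and gene lists were chosen with earlier results of these data known. Named were the members, PELP1, all genes of the carboxylation and other-ligand lists, up to 4 called genes of largest change per other list, and the 3 genes of highest r per member. ADAM10, AKT1, SRC, PLCG1, VIM, ESR1, PGR, CDH1, EPCAM, GATA3, CSF1R, CD14 and genes without reads were named after their values were seen. Some genes of these lists are counted but not reported here by name.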

Additional observations from a re-analysis of the deposited data

How the results depend on the processing

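GAS6, PROS1, MERTK, AXL and PELP1 kept their direction and their call in all 13 alternatives. The log2FC of GAS6 lay between -0.61 and -0.52, of PROS1 between -0.83 and -0.65, of MERTK between -0.71 and -0.58 and of AXL between -0.15 and -0.08. Leaving out single replicates gave TYRO3 a log2FC between -0.0444 and 0.0636, turning to -0.0444 without PELP1-KD replicate 2, and no alternative called it. The share of AXL among the receptors differed between groups by 0.0211 percentage points. It turned to -0.173 in CPM without length, and lay between -0.015 and 0.0782 with each replicate left out, turning to -0.0014 without control replicate 2 and to -0.015 without PELP1-KD replicate 1. Over the 40 other genes named by rule, 492 of 518 values kept direction and call, 21 lost and 5 gained a call, and 0 turned; VWF and FOXA1 gave no value with 10 counts required in every sample. Same-numbered replicates deviated together by correlations of 0.0388, 0.0653 and -0.0784, and only 1 of 3 control replicates correlated best with its own number. Little shared variation was thus seen, but these values cannot show whether same-numbered replicates were prepared together. A fit with the replicate block called 3335 genes lower and 3140 higher, gained the call of VKORC1 among these genes and lost none; the log2FC of GAS6 was -0.57, of PROS1 -0.74, of MERTK -0.65, of AXL -0.13, of TYRO3 0.02 and of PELP1 -0.97, and 45 genes of the 7 pathway lists were called in place of 41. The paired exact test of the ligand to receptor ratio gave p = 0.25, the smallest that 3 pairs allow. The cause of each turn was not tested.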
